A study of Mus musculus with 6 samples.

Results

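The 8 enzymes described here make serine from a glycolytic intermediate and pass a carbon unit from it into the folate cycle. They are Phgdh, Psat1 and Psph of serine synthesis, Shmt1 and Shmt2, and the folate enzymes Mthfd1, Mthfd1l and Mthfd2. They were chosen from the known pathway by symbol, with the RBM3KO against WT fold changes of these same libraries already in view. Their differences between genotypes are therefore a description, with no p-value printed, and counts of enzymes past a threshold are no test of the set. All 8 stand in the deposited table of 14416 genes, and all 8 were among the 11382 genes that passed the filter on low counts. RNA was measured by Smart-seq2 in innate lymphoid cells (ILCs), lymphocytes that lack rearranged antigen receptors, sorted as Lin-Thy1.2+ cells from the lungs of C57BL/6J mice. Of the 6 samples, 3 were wild-type (WT) and 3 were knocked out for Rbm3 (RBM3KO), a gene for an RNA-binding protein induced by cold. Both groups received the allergen of the mould Alternaria alternata at 25 µg, 3 times within 7 days, and no unchallenged group was analysed here. The sources used here give neither the animals' age nor the form of the Rbm3 allele nor the lineage antibodies. They also do not say whether samples came from separate animals, so the errors and p-values cover the spread from sample to sample, possibly technical.

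Serine synthesis branches from glycolysis at 3-phosphoglycerate, which PHGDH oxidises, PSAT1 transaminates and PSPH dephosphorylates. Serine hydroxymethyltransferase, SHMT1 in the cytosol and SHMT2 in mitochondria, then splits serine into glycine and a carbon unit carried by tetrahydrofolate. In mitochondria MTHFD2 oxidises that unit and MTHFD1L releases it as formate, and the trifunctional MTHFD1 takes up formate in the cytosol. The carried units serve purine and thymidylate synthesis, for which proliferating lymphocytes are known to raise the pathway, and the transcription factor ATF4 is known to activate several of its genes when amino acids run short.

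The bases just before the annotated start are shown for the 2 enzymes that passed the threshold of the fit over all genes, Phgdh and Shmt1, and for the 2 whose WT and RBM3KO libraries overlapped, Psph and Mthfd2. Each run is the 100 bases 5′ of the RefSeq start (GRCm38.p6), read 5′ to 3′ on the gene's strand, with CCAAT, or ATTGG where it lies on the other strand, in capitals. CCAAT is the box bound by the factor NF-Y. The 4 runs lie on the minus strand at chr3:98339970-98340069 (Phgdh), chr11:60811266-60811365 (Shmt1), chr5:129787254-129787353 (Psph) and chr6:83317605-83317704 (Mthfd2). RefSeq starts differ from the 5′ ends of the GENCODE gene spans given below. The runs of Shmt1, Psph and Mthfd2 lie inside those spans, and that of Phgdh partly so. Mthfd2 differs most, with its RefSeq start at 83317604 and its span ending at 83325908.
Phgdh: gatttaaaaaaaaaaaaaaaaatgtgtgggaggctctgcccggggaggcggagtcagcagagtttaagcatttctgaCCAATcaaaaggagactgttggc
Shmt1: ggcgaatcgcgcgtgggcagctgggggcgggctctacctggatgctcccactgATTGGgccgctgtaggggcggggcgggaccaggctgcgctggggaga
Psph: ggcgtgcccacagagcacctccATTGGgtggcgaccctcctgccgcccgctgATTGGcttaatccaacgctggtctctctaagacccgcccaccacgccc
Mthfd2: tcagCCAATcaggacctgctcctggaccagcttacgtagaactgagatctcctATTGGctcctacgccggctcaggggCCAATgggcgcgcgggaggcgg

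The CCAAT letters stood once before Phgdh, 23 bases from the start, and once before Shmt1, at 47. Before Psph they stood at 78 and 48 bases, and before Mthfd2 at 96, 47 and 22. Within 100 bases of a start, 6 of the 9 promoters listed for the 8 enzymes held CCAAT on either strand, while 18.9% of 32851 RefSeq promoters and 22.3% of the 10455 promoters of tested genes held it. In the full 300-base windows, which also take in bases past the start, the count was again 6 of 9. That stood against 37.4% of all promoters and 37.9% of those of tested genes. Shmt2 and Mthfd1l held none in either window. The box was thus present both before enzymes that passed the threshold and before those whose groups overlapped. The 300-base windows of the 9 promoters held no TGATGNAA, a form of the ATF4 response element found in 4.0% of all such windows and 2.2% of those of tested genes (both strands searched). They also held no CACGTG, the E-box that MYC binds, found in 7.2% and 10.1%. These are matches of letters and not sites of binding.

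The library totals ran from 7498247 counts in RBM3KO replicate 3 to 25068137 in WT replicate 3. The raw count of an enzyme in a library lay between 85 (Shmt1, RBM3KO replicate 3) and 9109 (Phgdh, WT replicate 3), far above the 3 counts that a 0 allows. Levels are counts relative to the library total, scaled by edgeR's TMM and given as CPM, with ± for the SD over 3 libraries, and fold changes are log2 of RBM3KO over WT with the standard error (SE) of edgeR's quasi-likelihood fit. Rbm3, which checks the labels, had 270, 314 and 293 CPM in WT and 26.5, 22.4 and 31.6 CPM in RBM3KO. Gene positions are those of GENCODE M21 on GRCm38. A gene was called where its Benjamini-Hochberg adjusted p over all tested genes lay under 0.05, which held for 1.00% of genes in the lower and 0.246% in the higher direction.

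Of the 8 enzymes, 2 were called lower in RBM3KO, Phgdh and Shmt1, 0 were called higher and 6 were not called. At an unadjusted edgeR p under 0.05, 6 were lower and 0 higher. Over all genes 1403 of the 11382 tested passed in either direction. That background is not split by direction, and it also stands behind the counts at this threshold for the lists below. DESeq2 called 3 lower and 0 higher, and it called 2.30% of the genes it tested lower. The estimate lay below 0 for all 8 with TMM, with DESeq2's size factors and with upper quartile scaling, and the median log2 fold change was -0.44, against 0.01 over all tested genes. In 6 of the 8 every RBM3KO library lay below every WT library, a pattern in the lower direction that 10.5% of tested genes shared. Because the enzymes were picked with this contrast known, nothing is read from these shares. Without WT replicate 1 none of the 8 was called, and without any other single library 1 was. The 8 levels summed to 1298 ± 26.4 CPM in the WT libraries (SD, n = 3), against 929 ± 63.9 CPM in the knockout (SD, n = 3). In sorted bulk samples, fewer cells that express a gene and less of its RNA per cell cannot be told apart.

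**Figure D1:**
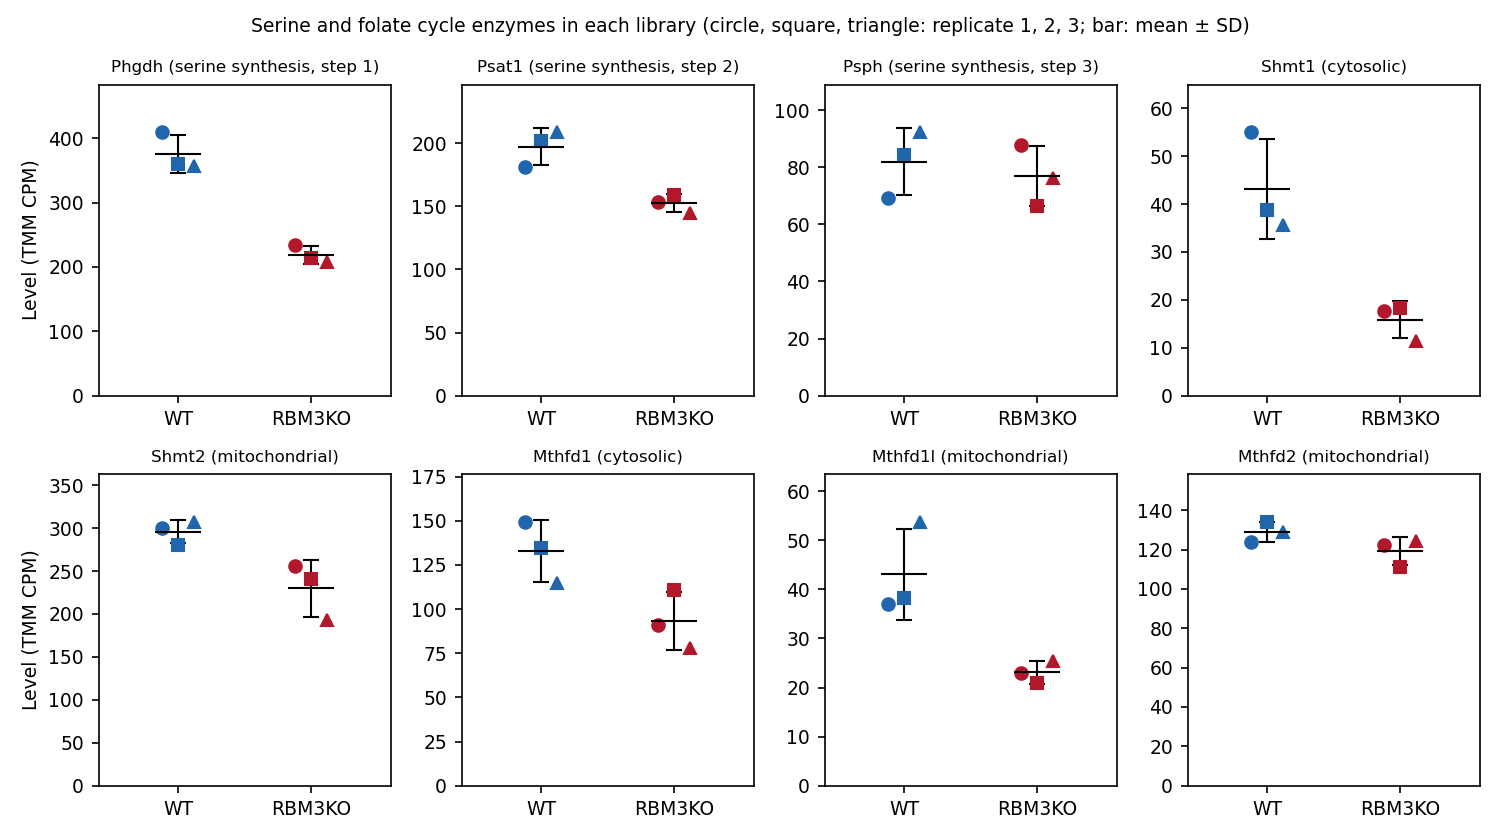
Level in TMM CPM (vertical axes, each from 0) of the 8 enzymes in the 3 WT and 3 RBM3KO libraries, with points for libraries and bars for mean ± SD. The groups stand apart for all but Psph and Mthfd2, and the gap is widest relative to the level for Shmt1, at 43.1 against 15.9 CPM.

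The 3 steps of serine synthesis differed in how far RBM3KO stood from WT, with the first step lowest and the last near its WT level. Phgdh (chr3:98313170-98339990), the NAD-dependent dehydrogenase that commits 3-phosphoglycerate to serine, had 409.7, 360.0 and 357 CPM in WT replicates 1, 2 and 3 and 234, 213 and 207 CPM in RBM3KO. The lowest WT library lay well above the highest RBM3KO library, and RBM3KO stood at 58.1% of WT (log2 fold change -0.78, SE 0.10, called lower). The call ended without WT replicate 1, where the log2 fold change was -0.72, and held in the 14 other alternatives. Psat1 (chr19:15904678-15947337), the aminotransferase of the second step, had 181, 202 and 209 CPM in WT and 153, 159 and 145 CPM in RBM3KO. Its groups did not overlap either, but the step between them was smaller, at 77.3% of WT (log2 fold change -0.37, SE 0.11, not called). Psph (chr5:129765558-129787449), the phosphatase that releases serine, had 69.3, 84.2 and 92.4 CPM in WT and 87.7, 66.6 and 76.3 CPM in RBM3KO. Here the libraries interleaved, and the log2 fold change of -0.09 was smaller than its SE of 0.17. The value came to 0.00 on the positive side when WT replicate 3 or RBM3KO replicate 2 was left out. Psph also shares 452 of its exon bases (10.4%) with Cct6a on the opposite strand, and reads of the 2 genes cannot be told apart there in a protocol that does not mark strand.

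The cytosolic serine hydroxymethyltransferase was called lower, and the mitochondrial one was not. Shmt1 (chr11:60788104-60811718), the cytosolic enzyme, had 55.1, 38.7 and 35.6 CPM in WT and 17.7, 18.4 and 11.4 CPM in RBM3KO, the largest fold change of the 8. The lowest WT library, at 35.6 CPM, lay far above the highest RBM3KO library, at 18.4 CPM, and the knockout mean stood at 37.0% of WT (log2 fold change -1.43, SE 0.28, called lower). The spread was wide for its size, with a coefficient of variation of 24.2% in each group, and the call ended with limma-voom. It also ended when any single library was left out, with log2 fold changes between -1.56 and -1.22. Smcr8 on the opposite strand overlaps 4.74% of its exon bases. Shmt2 (chr10:127517123-127522444), the mitochondrial enzyme and the major producer of carbon units in many cells, had 300.2, 281 and 307 CPM in WT and 256, 241 and 192 CPM in RBM3KO. The groups did not overlap, and RBM3KO replicate 3 stood lowest, apart from the other knockout libraries (77.7% of WT, log2 fold change -0.36, SE 0.12, not called).

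Of the folate enzymes, none passed the threshold. Mthfd1 and Mthfd1l had lower means in the knockout with no overlap, and Mthfd2 stood close to its WT level. Mthfd1 (chr12:76255298-76319803), the cytosolic trifunctional enzyme, had 149, 134 and 115 CPM in WT and 91.1, 111 and 77.9 CPM in RBM3KO. WT replicate 3 and RBM3KO replicate 2 nearly met (log2 fold change -0.51, SE 0.16, not called). Mthfd1l (chr10:3973118-4167081), the mitochondrial synthetase that releases formate, had 37.1, 38.3 and 53.7 CPM in WT and 23.0, 20.8 and 25.4 CPM in RBM3KO. RBM3KO stood at 53.5% of WT with no overlap, but WT replicate 3 stood apart from the other WT libraries (log2 fold change -0.90, SE 0.24, not called by edgeR and called by DESeq2, which called 2.30% of the genes it tested lower). Mthfd2 (chr6:83305691-83325908), the mitochondrial dehydrogenase and cyclohydrolase, had 124, 134 and 129 CPM in WT and 122, 111 and 124 CPM in RBM3KO. It had the smallest spread in WT of the 8 enzymes, at 3.96%, and its groups overlapped (log2 fold change -0.11, SE 0.12, not called).

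Per length, Phgdh was the most abundant of the 8 transcripts in both genotypes. Its level was 151 ± 11.9 CPM per kilobase of exon (SD, n = 3) in WT and 87.8 ± 5.79 in RBM3KO. Shmt2 followed with 95.2 ± 4.43 and 73.9 ± 10.7, then Psat1 with 46.3 ± 3.45 and 35.8 ± 1.68. Mthfd2 stood at 37.0 ± 1.46 and 34.2 ± 2.05, Mthfd1 at 29.9 ± 3.91 and 21.0 ± 3.71, and Psph at 18.9 ± 2.71 and 17.8 ± 2.44. Shmt1 and Mthfd1l closed the order at 11.1 ± 2.69 and 9.71 ± 2.09 in WT, where their libraries overlapped, as no other neighbours in the WT order did. In RBM3KO these 2 changed places, at 4.08 ± 0.989 and 5.20 ± 0.519, again with overlap. Psat1 and Mthfd2, and Mthfd1 and Psph, overlapped there too, where the first of each pair stood nearer the other than in WT. With the length of the transcript that has the longest coding sequence, Psph ranked above Mthfd1, and the remaining WT order was the same.

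**Figure D2:**
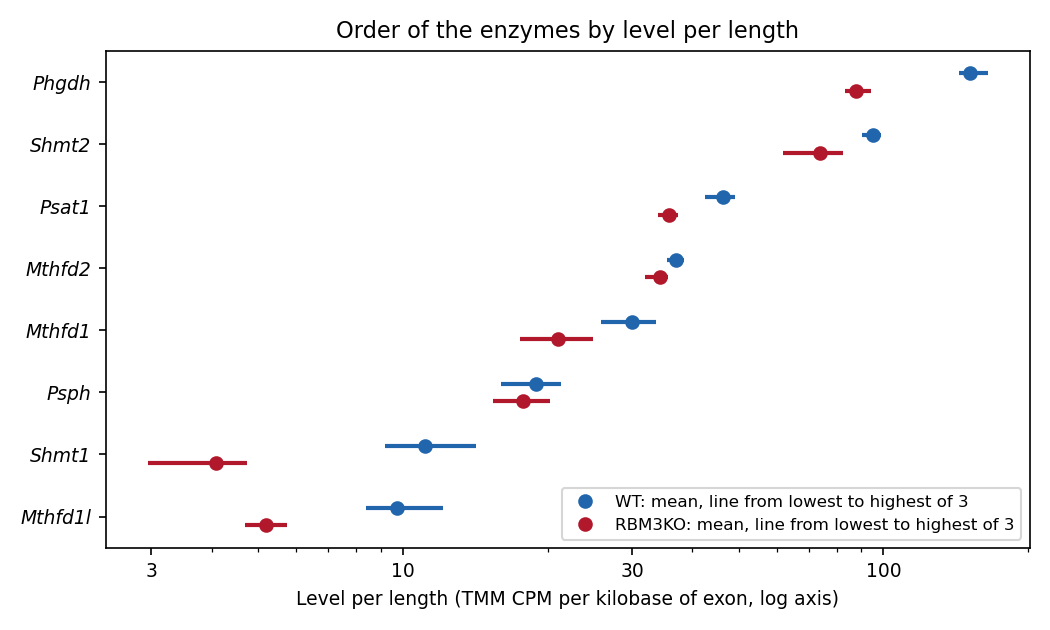
Level per length (horizontal log axis, TMM CPM per kilobase of the exon union) of each enzyme in WT and RBM3KO, with points for means and lines from the lowest to the highest of 3 libraries. Phgdh leads in both genotypes, at 151 in WT and 87.8 in RBM3KO, and the Psph and Mthfd2 lines of the genotypes overlap.

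Phgdh and Shmt2, the most abundant per length, carried most of the summed difference. The 8 levels per kilobase added up to 399 in WT and 279.8 in RBM3KO, and Phgdh made up 53.0% and Shmt2 17.8% of the gap, against 5.89% for Shmt1 with its larger fold change. Phgdh went from 37.8% of the sum in WT to 31.4% in RBM3KO, while Mthfd2 went from 9.26% to 12.2% and Psph from 4.74% to 6.34%.

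Ratios of enzymes within a library do not depend on how libraries are scaled. Only 4 were formed, each setting an enzyme with a larger drop against one with a smaller drop, and all 4 separated the genotypes. Phgdh over Psat1, per kilobase, was 3.88, 3.05 and 2.92 in WT and 2.62, 2.30 and 2.45 in RBM3KO. The ratio of the first to the second step was therefore lower in every RBM3KO library, though WT replicate 3 stood close to RBM3KO replicate 1. Phgdh over Psph was 10.3, 7.45 and 6.72 in WT and 4.66, 5.57 and 4.73 in RBM3KO. Shmt1 made up 12.8%, 9.95% and 8.50% of the summed Shmt1 and Shmt2 level in WT and 5.25%, 5.76% and 4.54% in RBM3KO. The mitochondrial form thus dominated in all 6 libraries, and the cytosolic share was lower in each RBM3KO library than in each WT library. Mthfd1l over Mthfd2 was 0.235, 0.225 and 0.328 in WT and 0.147, 0.147 and 0.161 in RBM3KO, so the later of the 2 mitochondrial steps stood lower relative to the earlier one in the knockout. These 4 ratios were picked after the values were seen and have no test.

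**Figure D3:**
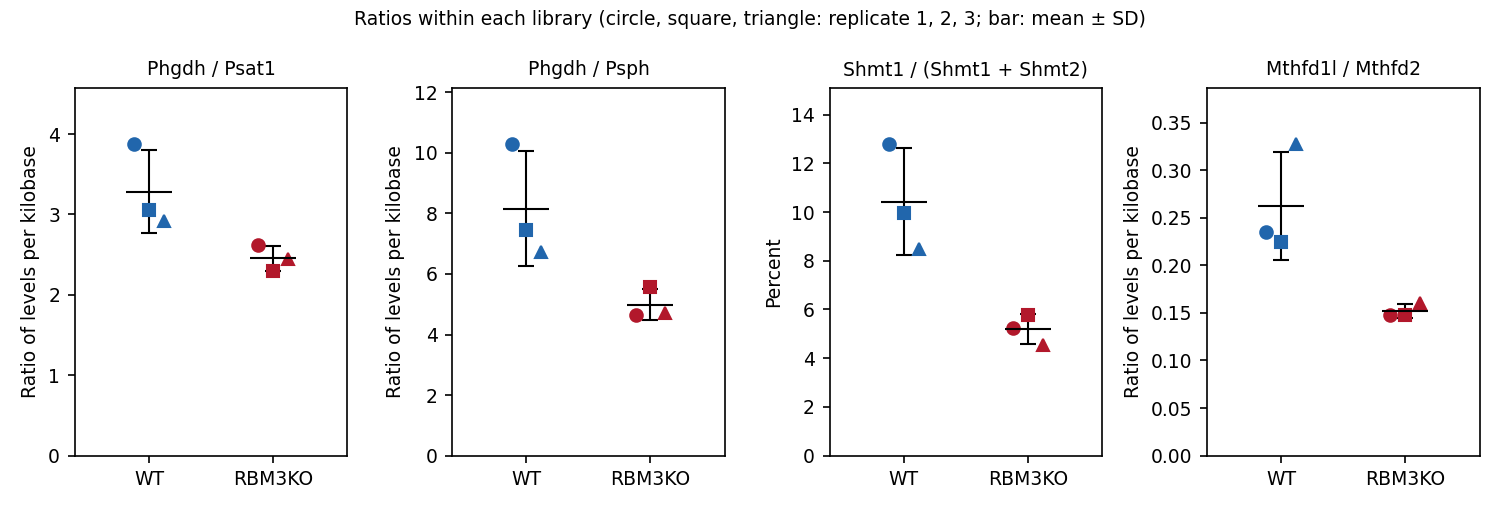
Ratios of levels per kilobase within each library (vertical axes from 0; the Shmt1 panel in percent), with points for libraries and bars for mean ± SD over 3. In every panel the RBM3KO points lie below the WT points, with means of 5.19% against 10.4% for the Shmt1 share.

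Correlations between the enzymes differed from pair to pair, and 6 libraries are too few to show whether the 8 vary together. Over the 6 libraries Pearson's r between pairs of enzymes on log2 CPM ran from -0.186 (Psph and Mthfd1) to 0.970 (Phgdh and Shmt1). After the mean of each genotype was taken away, 13 of 28 pairs had an r above 0. Shmt1 and Mthfd1, the cytosolic pair, then had the highest r, at 0.877, and Phgdh and Shmt1 had 0.804, while Mthfd1 and Mthfd1l had -0.861. In the WT libraries Phgdh, Shmt1 and Mthfd1 were highest in replicate 1, whereas Psat1, Psph, Shmt2 and Mthfd1l were highest in replicate 3. These values rest on 6 libraries that share their totals and are descriptions.

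The genes whose levels over the 6 libraries were most like those of Phgdh were found by a likeness that includes the genotype difference itself and so is a description. Of 7160 named genes at 10 CPM or more on average, the 5 with the highest Pearson's r of log2 CPM were Hist1h4d, a replication-dependent histone H4 gene (r = 0.997), Plk1, a mitotic kinase (0.997), Tuba1b, an alpha tubulin (0.997), Ccne1, cyclin E1 (0.995), and Dtymk, the kinase that follows thymidylate synthase (0.995). Near-identical histone and tubulin copies make single values of Hist1h4d and Tuba1b uncertain.

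Cell cycle genes fell along with Phgdh and Shmt1. Of 27 listed cell cycle genes, all tested, 16 were called lower, against 1.00% of all tested genes, and 11 were not called. All 27 had estimates below 0, 24 of them at an unadjusted edgeR p under 0.05, with a median log2 fold change of -0.85. Plk1 (-1.67, SE 0.18), Ube2c (-1.55, SE 0.17), Ccna2 (-1.46, SE 0.16) and Cdk1 (-1.31, SE 0.16) stood first by adjusted p. The number called lower was 3 without WT replicate 1, and between 7 and 9 without WT replicate 2, WT replicate 3, RBM3KO replicate 1 or RBM3KO replicate 2. The list's summed level was 5696, 4818 and 4644 CPM in WT and 3056, 3163 and 3070.5 CPM in RBM3KO, highest in WT replicate 1 like Phgdh and Shmt1. Set against that sum, Phgdh came to 71.9, 74.7 and 76.8 CPM per 1000 cell cycle CPM in WT and 76.7, 67.4 and 67.5 in RBM3KO, and the groups overlapped. Shmt2, Mthfd1 and Mthfd1l overlapped on this scale too. Shmt1 remained lower, at 8.46 ± 1.06 in WT and 5.12 ± 1.20 in RBM3KO, with no overlap. Mthfd2 came out higher, at 25.8 ± 3.49 and 38.6 ± 2.97, as did Psat1 and Psph, all with no overlap. The sum itself was lower in RBM3KO, with a log2 ratio of -0.71, so a gene with unchanged CPM comes out higher on this scale. These positions restate the fold changes in CPM against that ratio, -0.78 for Phgdh, and are no separate result. The part of cell division in the lower enzyme levels was not tested.

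Of the remaining folate enzymes and carriers, 1 was called lower and 13 of 14 tested were not called. The estimate lay below 0 for 11 of the 14, with a median log2 fold change of -0.26. The gene called lower was Tyms, thymidylate synthase, which spends a carbon unit to make thymidylate. It had 177, 143 and 143 CPM in WT and 76.4, 87.6 and 65.5 CPM in RBM3KO (-1.01 on the log2 scale with an SE of 0.15, edgeR adjusted p = 0.0117). All WT libraries lay above all RBM3KO libraries, and the call ended without WT replicate 1 (adjusted p = 0.0943). Slc19a1, the reduced folate carrier, had 71.8 ± 13.3 and 47.9 ± 4.38 CPM. It did not pass (edgeR adjusted p = 0.207) and was named after its values were seen.

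Purine synthesis is the other main route that uses folate-borne carbon, though not at every step. Its listed genes had a median close to that of the 8 enzymes but no call in edgeR. Of 10 tested, 0 passed in edgeR, 4 were lower at an unadjusted p under 0.05, 1 was lower by DESeq2 and 0 by limma-voom, with a median log2 fold change of -0.43. Paics, which joins a carbon dioxide and an aspartate to the forming ring, had 244 ± 19.3 CPM in WT and 169 ± 16.3 CPM in RBM3KO (-0.53 on the log2 scale with an SE of 0.11, edgeR adjusted p = 0.0560). It passed with DESeq2, at equal depth and under both other filters on low counts. Adsl, which acts at 2 steps of the route, had 225 ± 20.6 and 168 ± 18.0 CPM (edgeR adjusted p = 0.149). In the glycine cleavage list, which also held Gcat of threonine breakdown, 0 of 4 tested genes passed in edgeR or limma-voom and 1 was lower at an unadjusted p under 0.05. That gene, Gcat, had 56.9 ± 7.85 and 32.4 ± 5.77 CPM (edgeR adjusted p = 0.120) and was called lower by DESeq2. Gcsh, a subunit of the cleavage system, had 36.4 ± 2.25 and 26.5 ± 8.46 CPM (edgeR adjusted p = 0.554).

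**Figure D4:**
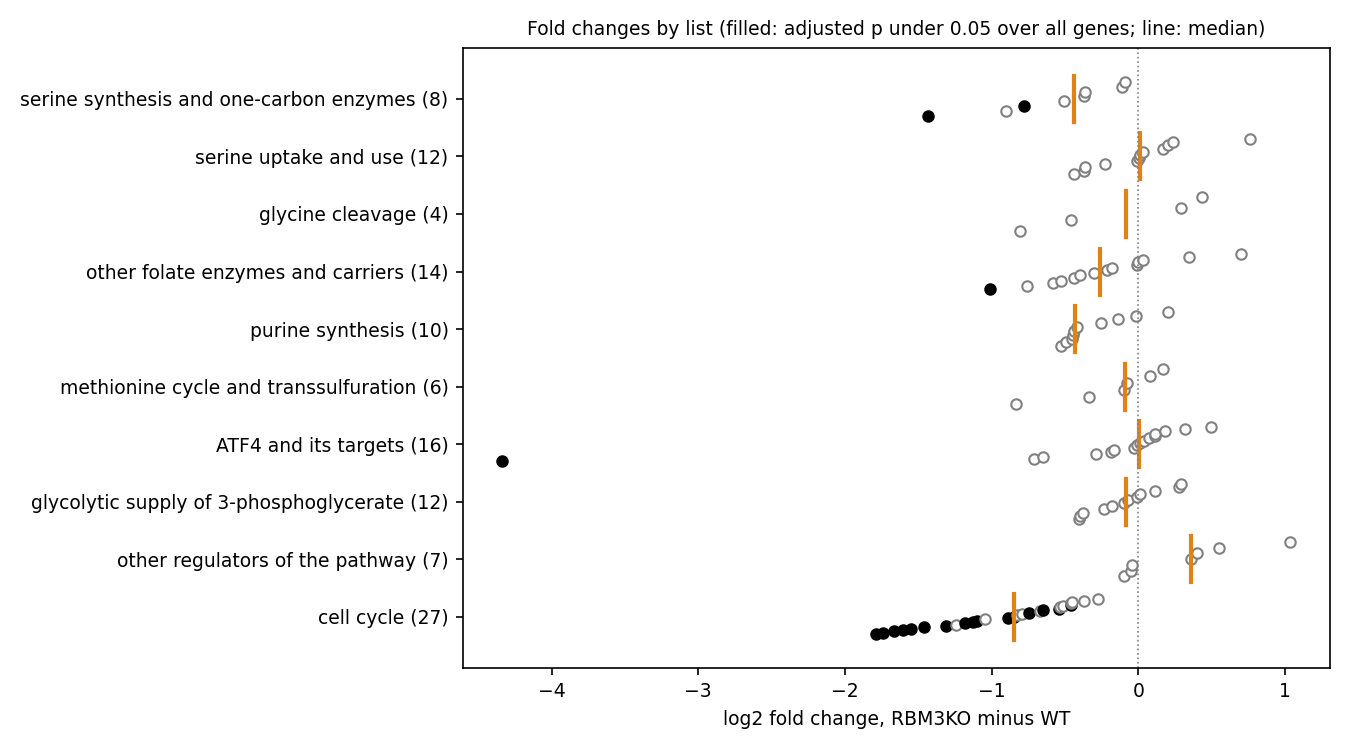
Log2 fold change, RBM3KO minus WT (horizontal axis), of each tested gene of the pathway and cell cycle lists (marker lists are not drawn), with the number tested in brackets, filled points for genes called over all tested genes and a line at each median. The enzymes (-0.44), purine synthesis (-0.43) and cell cycle (-0.85) have the lowest medians of the lists drawn. Serine uptake and use (0.01) and the ATF4 list (0.00) have medians close to that of all genes.

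In the lists of serine uptake and use and of glycolysis, no gene passed the threshold in edgeR. Of 12 tested genes of serine uptake and use, 0 passed in edgeR, DESeq2 or limma-voom, 2 were lower at an unadjusted p under 0.05, and the median log2 fold change was 0.01. Slc1a5, a neutral amino acid transporter, had 413 ± 42.4 and 416 ± 24.3 CPM, and Sars, the seryl-tRNA synthetase, 231 ± 13.7 and 230.4 ± 28.5 CPM (edgeR adjusted p = 0.987 and 0.993). Sfxn1, the mitochondrial serine carrier, named after its value was seen, had 95.6 ± 10.5 and 74.2 ± 10.3 CPM (edgeR adjusted p = 0.372). Of 12 tested glycolytic genes, 0 passed in edgeR or limma-voom, 2 were higher and 3 lower at an unadjusted p under 0.05, and DESeq2 called 2 lower, with a median of -0.08. Pkm2, pyruvate kinase, had 2559 ± 67.8 and 2537 ± 186 CPM (edgeR adjusted p = 0.979). Gapdh, which acts shortly before the branch, had 2446 ± 47.2 and 2076 ± 61.2 CPM (-0.24 on the log2 scale with an SE of 0.07, edgeR adjusted p = 0.170) and was lower by DESeq2.

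Transcripts of ATF4 and its targets, which include known activators of serine synthesis genes, did not pass the threshold, with 1 exception. Of 16 tested, 1 was called lower and 15 were not called, with 8 estimates below 0 and a median log2 fold change of 0.00. At an unadjusted edgeR p under 0.05, 2 were lower, the called gene and Slc7a5, and 0 higher. Slc7a5 had 101 ± 11.9 and 61.8 ± 27.8 CPM with no overlap (edgeR adjusted p = 0.329). Sesn2 was higher with no overlap, at 15.1 ± 0.842 and 21.3 ± 2.32 CPM (edgeR adjusted p = 0.530). Slc7a5 and Sesn2 were named after their values were seen. Atf4 had 88.4 ± 0.864 CPM in WT and 95.8 ± 14.8 CPM in RBM3KO and the target Asns, asparagine synthetase, 64.4 ± 9.80 and 69.9 ± 21.6 CPM (edgeR adjusted p = 0.857 and 0.927), both named after their values were seen. The gene called lower was Cebpb, a transcription factor, with 40.4, 42.3 and 118 CPM in WT and 0.718, 1.43 and 9.02 CPM in RBM3KO (-4.33 on the log2 scale with an SE of 0.84, edgeR adjusted p = 0.0441). Its call held in 6 of 15 alternatives, among them the run without RBM3KO replicate 3, where the log2 fold change was -5.94, and ended when any other library was left out. Of 7 other regulators 0 passed in edgeR, DESeq2 or limma-voom, with 3 estimates below 0 and a median log2 fold change of 0.36. At an unadjusted edgeR p under 0.05, 1 was higher, Myc, at 99.3 ± 13.6 and 127 ± 11.5 CPM (edgeR adjusted p = 0.333). Trp53 had 211 ± 26.1 and 204 ± 17.1 CPM (edgeR adjusted p = 0.933). Of 6 tested methionine cycle and transsulfuration genes 0 passed in the 3 tools and 1 was lower at an unadjusted p under 0.05, with a median of -0.09. Mat2a, the synthetase that makes S-adenosylmethionine, had 397 ± 41.2 and 419 ± 47.1 CPM and its partner Mat2b 216 ± 15.4 and 205 ± 30.4 CPM (edgeR adjusted p = 0.878 and 0.899).

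The sorted cells carried ILC transcripts, with Id2 at 1636 to 1765 CPM in WT and 1836 to 2274 CPM in RBM3KO and Klrg1 at 859 to 921 and 939 to 1079 CPM. None of the marker lists of ILCs and other cell types had a member called by edgeR, although 4 ILC markers were higher and 2 B cell markers lower at an unadjusted p under 0.05, and DESeq2 called 2 ILC markers higher and 2 B cell markers lower. In CPM of the total count, the 10 ILC markers added up to 4252 to 4665 in WT and 5058 to 5257 in RBM3KO and 7 B cell markers to 65.1 to 90.2 and 40.4 to 44.5, so both separated the genotypes as the enzymes did. Among the B cell markers Cd79b had 34.1, 52.7 and 49.9 CPM in WT and 38.7, 28.1 and 34.5 CPM in RBM3KO. Cd79a had 15.7 ± 2.65 and 4.46 ± 0.489 CPM. Igj had 1.47 to 4.03 CPM in WT and no count in any RBM3KO library. Ms4a1 had no count in RBM3KO replicates 1 and 3. Blk went the other way, with 0, 0.940 and 0 CPM in WT and 1.96, 0.418 and 1.21 CPM in RBM3KO. Of 7 tested B cell markers, 6 had a log2 fold change below 0. Csf1r and Itgam, which mark myeloid cells, had no count in WT replicate 3 or in RBM3KO replicates 1 and 3. Igj, Ms4a1, Blk, Csf1r and Itgam were named after their values were seen. Sums of the 8 T cell markers (176 to 287 in WT and 187 to 352 in RBM3KO, mostly Cd3g), the 11 myeloid markers (28.1 to 169 and 4.48 to 68.3, mostly Lyz2) and the 6 epithelial markers (17.6 to 94.9 and 16.3 to 268, with Sftpc at 75.7 CPM in WT replicate 2 and 248 CPM in RBM3KO replicate 3) overlapped between genotypes. So did those of mast cells and granulocytes (21.0 to 27.6 and 12.9 to 23.5) and of stroma and endothelium (45.6 to 70.1 and 64.3 to 68.7). The part of these cells in the enzyme levels was not tested.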

How the data were processed

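The deposited table gives the authors' raw counts of reads for each gene symbol in 6 samples, 3 WT and 3 RBM3KO, unpooled. Per the labels' protocols, RNA came from a miRNeasy kit and libraries from Smart-seq2 and Nextera XT. Per the submitters' processing notes, Bowtie 1.0.0, STAR 2.6.1c, featureCounts 1.6.5 and mm10 were used, with no role or order, and neither annotation nor strand setting is given in the sources used here. PCR copies are counted, so floors of 3 counts (0.120 to 0.400 CPM) cover counting error only.

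The 2 genotypes were compared in edgeR 4.0.16 (R 4.3.3) after filterByExpr and TMM, by its robust quasi-likelihood test, with p-values adjusted over all tested genes at 0.05 and the SE taken as the log2 fold change over the root of F. DESeq2 1.42.0 and limma-voom (limma 3.58.1) were alternatives. No 2 columns were identical, and all 6 were kept. Exon unions come from GENCODE M21 (GRCm38), which uses the assembly of mm10, and all 8 enzymes matched by symbol. Of the other pathway and cell cycle genes, 108 were tested, 6 are in the table but did not pass the filter, and 8 were not analysed here.

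The enzymes and lists were chosen with earlier results of these data known. Named genes are all 8 enzymes, from each list up to 4 called genes by adjusted p or else the 2 with the highest mean, and the 5 genes most like the enzyme with the smallest p. Others are said to have been named after their values were seen.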

Additional observations from a re-analysis of the deposited data

How the results depend on the processing

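The 142 genes called (28 higher, 114 lower) became 414 (153 and 261) with DESeq2, and higher calls numbered 52 with limma-voom, 48 unfiltered and 59 under the filter of 10 CPM. Without each replicate in turn the total ran from 12 to 99, higher calls from 1 to 18, lower calls from 11 to 85, cell cycle calls from 3 to 11, calls in the 8 pathway lists from 0 to 2 (2 with all libraries) and enzymes called from 0 to 1. Groups of 2 give the test less to work with. Limma-voom called 1 enzyme and 1 pathway gene, and DESeq2 6 pathway genes. The median of the enzymes lay between -0.53 and -0.37 in these 6 runs. Directions turned only among estimates near 0, and all of these stayed uncalled. Without a replicate, Psph ran from -0.20 to 0.0026 (0.00028 in another run), Slc1a5 from -0.039 to 0.10, Sars from -0.11 to 0.068, Mat2b from -0.17 to 0.036, Pkm2 from -0.069 to 0.037, Trp53 from -0.12 to 0.052 and Asns from -0.047 to 0.35. With upper quartile scaling Sars was at 0.020 and Pkm2 at 0.013.

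With the replicate number as a block, 149 genes and the same count of 2 enzymes were called. Deviations of same-numbered libraries had correlations of 0.056, 0.057 and 0.005, and those of differently numbered libraries ran from -0.069 to 0.021. These values do not settle whether the numbers pair samples. The labels do not say that they do, so the main fit used no pairing. With the transcript of the longest coding sequence as length, WT levels per kilobase were 198 for Phgdh, 75.3 for Psat1, 47.3 for Psph, 15.1 for Shmt1, 129 for Shmt2, 41.0 for Mthfd1 and 61.8 for Mthfd2. Depth limits Shmt1 most, with 85 counts in RBM3KO replicate 3.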
